A study of Caenorhabditis elegans with 16 samples.

Results

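The mir-64 cluster of Caenorhabditis elegans holds the hairpins mir-229, mir-64, mir-65 and mir-66, and mir-63 is a single hairpin on another chromosome. Their guide strands, miR-229-5p, miR-64-5p, miR-65-5p, miR-66-5p and miR-63-3p (cel-mir-229-5p, cel-mir-64-5p, cel-mir-65-5p, cel-mir-66-5p and cel-mir-63-3p in the deposited lists), were chosen by name, without use of measured values, and are 5 of the 366 miRNA strands listed in the libraries. Small RNAs were sequenced from 16 libraries of 8 strains, 2 independent libraries per strain, each made from 50 whole embryos at the comma stage, the point at which the embryo starts to elongate. The strains altered the miR-51 family, an abundant group of miRNAs that none of these 5 strands belongs to, so the comparison asked whether the 5 strands, and the ratios between them, kept their levels when that family was removed or replaced. Levels are given in CPM, counts of unique molecular identifiers (UMIs, random bases that mark each captured RNA molecule) per 1000000 UMIs on miRNAs other than the miR-51 family, after TMM scaling between libraries.

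A miRNA is cut from a hairpin by Drosha and Dicer, and one strand of the resulting duplex, the guide, stays in an Argonaute protein and directs it to messenger RNAs that pair with the seed near its 5′ end. Hairpins of a cluster lie close together on one strand and can be cut from a single primary transcript, after which each mature strand is made and lost at its own rate. miR-63, miR-64, miR-65, miR-66 and miR-229 of C. elegans share a seed and are grouped as one family.

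Wild type was N2. All 7 other strains lack the native mir-51, mir-52 and mir-53 hairpins, and all embryos were grown at 20 °C on OP50 bacteria. The miR-51 family null strain, MLC1800, carries the deletions nDf67 and n4100 on chromosome IV and nDf58 on X, and was kept with the extrachromosomal array lucEx1057, which holds a fosmid with the miR-54 cluster. The sources used here do not say whether the collected embryos had lost that array, which can be lost from cell to cell. In its libraries, the level of miR-54-3p was 8.60% of its wild-type mean, that of miR-55-3p 9.69% and that of miR-56-3p 10.6%, so the libraries labelled null held some family miRNA. The deletion series keeps the miR-54 cluster on X: MLC2290 (miR-54 cluster only) has nDf67 and n4100, MLC2394 (miR-54 and miR-55 only) adds mir-56(luc177), and MLC2393 (miR-54 only), a slow-growing strain, adds the deletion luc180 of mir-55 and mir-56. In the replacement strains, which carry nDf67 and nDf58, the mir-52 hairpin was exchanged at its own locus for that of mir-51 (MLC1997, miR-52 to miR-51), of mir-53 (MLC1917, miR-52 to miR-53) or of mir-57 with the miR-51 seed (MLC1918, miR-52 to miR-57 seed). In all 7 strains miR-52-5p was between 0.310% and 0.633% of its wild-type mean. Each strain had its own adapter barcode, so barcode and genotype cannot be told apart.

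The libraries held 18481 (miR-52 to miR-53, replicate 1) to 844718 (wild type, replicate 1) UMIs on miRNAs, with a median of 103072, and 3 libraries held fewer than 50000. The embryonic miR-35 to miR-42 strands took 30.6% to 53.4% of the miRNA UMIs, and 5 strands that rise in larvae (let-7, lin-4, miR-48, miR-84 and miR-241) took 0.0206% to 0.452%. Between 948 and 35693 UMIs per library fell on the 5 strands, which is 4.23% to 7.56% of all miRNA UMIs, and each of the 5 was listed in all 16 libraries. The shares in this paragraph are of all miRNA UMIs, the miR-51 family included. Guide strands of that family took 0.159% (miR-52 to miR-57 seed, replicate 1) to 31.4% (miR-52 to miR-51, replicate 1) of them. Each share therefore also moves with what the family takes. For both strands of the 5 hairpins, the UMIs divided among strands that fit a read equalled the UMIs in full in 160 of 160 values, so no UMI was shared between these sequences.

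The 4 hairpins of the cluster lie head to tail on the plus strand of chromosome III (WBcel235, Ensembl release 115), in the order mir-229 (WBGene00003322, III:2172452-2172566), mir-64 (WBGene00003292, III:2172848-2172957), mir-65 (WBGene00003293, III:2173002-2173101) and mir-66 (WBGene00003294, III:2173108-2173206). They span 755 bases, with 281 bases between mir-229 and mir-64, 44 between mir-64 and mir-65, and 6 between mir-65 and mir-66. All 4 sit in intron 11 of gcn-1, a 6429-base intron of a protein-coding gene on the same strand, named for a regulator of the translation response to amino acid shortage, and overlap no exon. mir-63 (WBGene00003291) lies on the minus strand of chromosome X (X:17598765-17598868) and overlaps no other annotated gene. The closest protein-coding gene, lec-9, is 1618 bases away. The annotated miR-229-5p is 26 bases long, miR-63-3p 24, and miR-64-5p, miR-65-5p and miR-66-5p are 23 each.

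**Figure D1:**
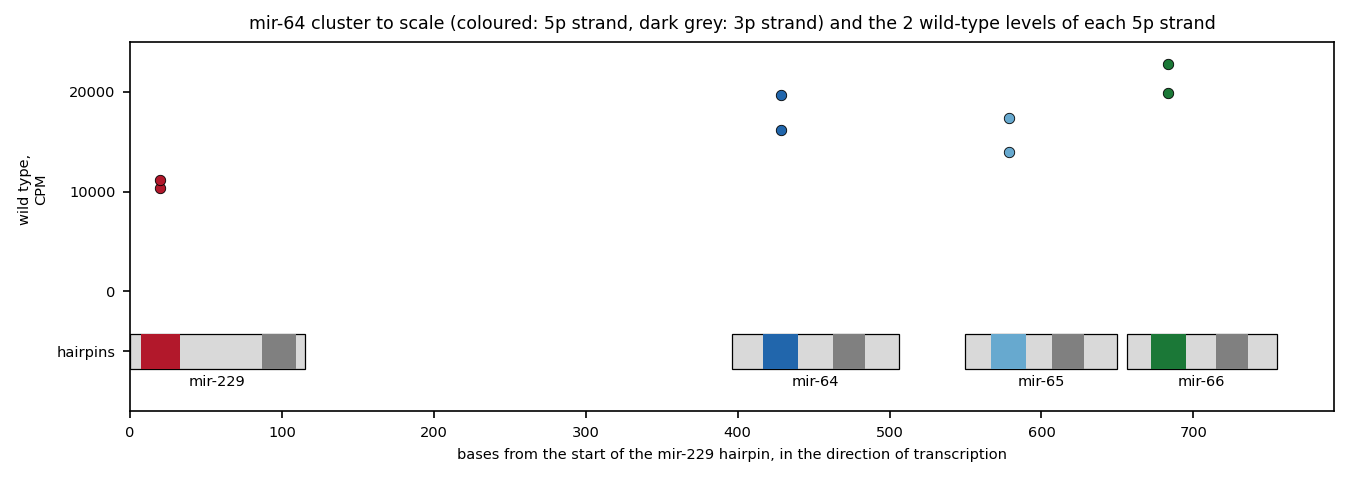
Map of the mir-64 cluster, with bases from the start of the mir-229 hairpin on the x axis, and the level of each 5p strand in the 2 wild-type libraries above its hairpin, in CPM (1 point per library). mir-229 stands 281 bases apart from the rest and gave the lowest level of the 4, at 10404 and 11169 CPM.

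In wild type, the 4 cluster strands lay between 10786 and 21328 CPM on average, and miR-63-3p was far below them. miR-66-5p was highest, at 21328 ± 2064 CPM (SD, n = 2), and ranked 20th of the 366 strands. miR-64-5p followed at 17915 ± 2470 (24th) and miR-65-5p at 15656 ± 2427 (26th). The higher miR-64-5p library (19662) lay just under the lower miR-66-5p library (19869), a gap smaller than either SD, and the miR-65-5p libraries (13939 and 17372) overlapped those of miR-64-5p (16169 and 19662). miR-229-5p was at 10786 ± 541 (32nd), below every wild-type value of the other cluster strands. miR-63-3p was at 176 in both libraries, from 104 and 25 UMIs, and ranked 105th. UMIs count ligated molecules, and ligation can differ between sequences, so this order is one of captured molecules.

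Within a library the order needs no scaling. The order miR-66-5p, miR-64-5p, miR-65-5p, miR-229-5p, miR-63-3p held in 6 of 16 libraries, both of wild type among them. In 5 others, all of mutant strains, miR-64-5p and miR-66-5p changed places, and 5 libraries had one of 4 other orders. miR-63-3p was the lowest in 16 of 16.

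None of the 5 strands was called different from wild type in any of the 7 strains, in 35 tests by the quasi-likelihood method of edgeR, adjusted by Benjamini-Hochberg over all 162 strands tested. The background was 13% of strands called in the family null strain, 3.7% in miR-54 cluster only, 5.56% in miR-54 and miR-55 only, 11.1% in miR-54 only, 13.6% in miR-52 to miR-51, 8.02% in miR-52 to miR-57 seed and 8.64% in miR-52 to miR-53. These shares, and those below for the combined tests and the deletion series, are over all 162 strands. The 162 include strands of the miR-51 family, which the strains alter by design, and 150 lie outside it. How many of the called strands belong to the family was not counted. Across the 8 strains in one test, where 9.88% of strands were called, and for the mean of the 7 strains against wild type, where 10.5% were, the count was again 0 of 5. It was also 0 of 5 for both steps of the deletion series, miR-54 and miR-55 only against miR-54 cluster only and miR-54 only against miR-54 and miR-55 only, where 1.23% of strands were called in each. That share is 2 of 162 strands, and each step itself deletes a hairpin of the family, mir-56 in the first and mir-55 in the second. Whether the called strands are those of the deleted hairpins was not examined. At an unadjusted p under 0.05, 4 of the 35 tests passed, each of them for miR-66-5p. DESeq2 called 1 of the 35, also miR-66-5p.

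**Figure D2:**
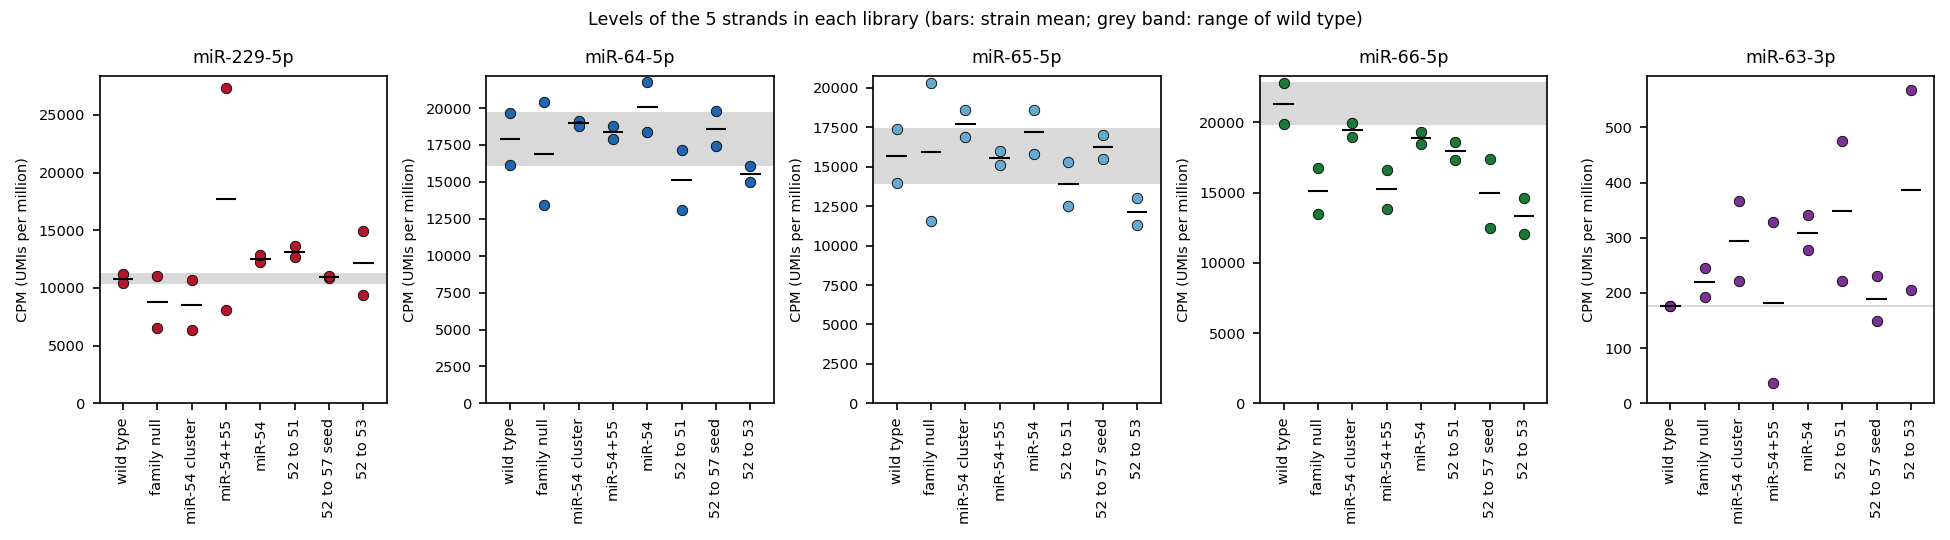
Level of each of the 5 strands in every library, by strain (x axis), in CPM, with 1 point per library, a bar at the strain mean and a grey band between the 2 wild-type libraries. miR-66-5p lies below the band in 13 of 14 mutant libraries (10 of 14 with plain sums as library sizes), and the 2 miR-229-5p libraries of a strain differ by up to 27368 against 8074.

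miR-66-5p, from the last hairpin of the cluster, was lower than wild type on average in each of the 7 strains. The wild-type libraries had 19869 and 22788 CPM. The family null libraries had 13466 and 16772, those of miR-54 cluster only 18960 and 19981, those of miR-54 and miR-55 only 13842 and 16623, and those of miR-54 only 19296 and 18475. In the replacement strains the values were 18565 and 17304 in miR-52 to miR-51, 12466 and 17415 in miR-52 to miR-57 seed, and 12031 and 14598 in miR-52 to miR-53. Of the 14 mutant libraries, 13 lay below both wild-type libraries, and 10 did so when library sizes were plain sums. Among the 150 tested strands outside the miR-51 family, 10% had at least 13 of 14 mutant libraries below both.

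The largest difference was in miR-52 to miR-53, at a log2 fold change of -0.67 ± 0.22 (SE), with both libraries below both of wild type and an adjusted p of 0.0633 by edgeR's quasi-likelihood test. With DESeq2 this difference was -0.59 and passed, at an adjusted p of 0.0397. That run also took median-of-ratios library sizes in place of TMM. Replicate 1 of miR-52 to miR-53 was the shallowest of the 16 libraries, with 18481 UMIs on miRNAs and 212 on miR-66-5p. When single libraries were omitted, the edgeR difference lay between -0.83 and -0.41. The family null strain (-0.50 ± 0.21, adjusted p = 0.196), miR-54 and miR-55 only (-0.49 ± 0.22, adjusted p = 0.343) and miR-52 to miR-57 seed (-0.51 ± 0.22, adjusted p = 0.262) had smaller unadjusted p-values than 0.05 that did not hold after adjustment in edgeR. In the other 3 strains the log2 fold change was between -0.13 and -0.25. The mean of the 7 strains was 0.39 lower on the log2 scale, as -0.39 ± 0.16 with an adjusted p of 0.166 in edgeR. The same 2 wild-type libraries enter all 7 comparisons, so the shared direction is not independent evidence. The replicate 1 library of wild type was also the deepest of the 16, and the part of depth was not tested.

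**Figure D3:**
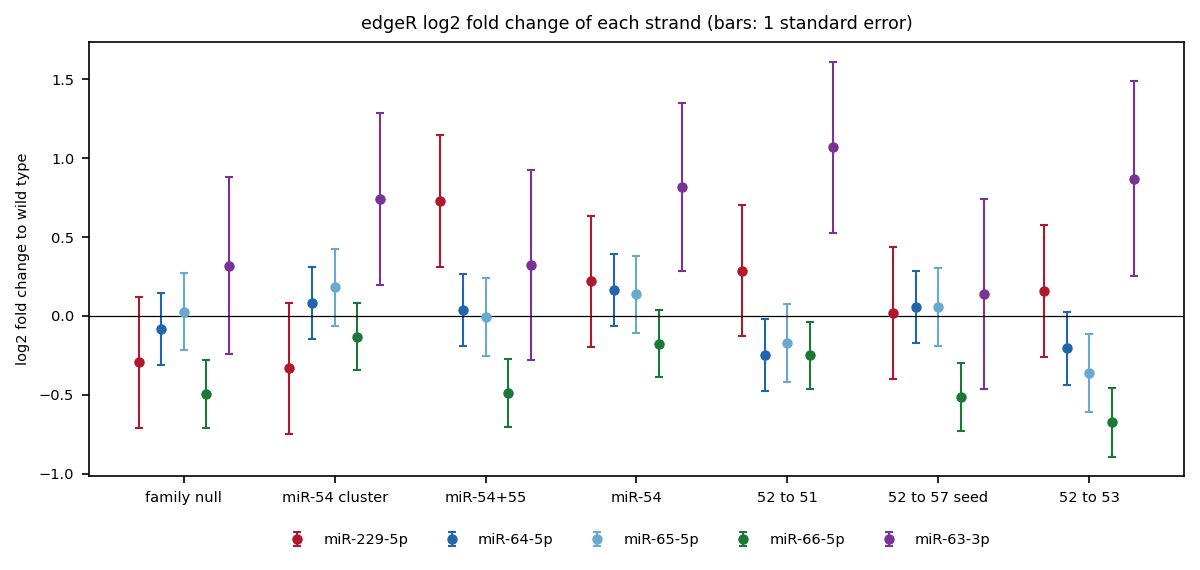
edgeR log2 fold change to wild type of each strand (y axis) in each of the 7 strains (x axis), with bars of 1 standard error. The miR-66-5p points run from -0.67 to -0.13, all below 0, while miR-64-5p and miR-65-5p lie on both sides of 0 and the bars of miR-63-3p are the widest.

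miR-64-5p and miR-65-5p, from the middle hairpins, lay on both sides of their wild-type levels. miR-64-5p had 16169 and 19662 CPM in wild type, and its mutant libraries ran from 13077 (miR-52 to miR-51, replicate 2) through a median of 18136 to 21767 (miR-54 only, replicate 1). Of those 14 libraries, 4 lay below both of wild type and 3 above both. The mean of the 7 strains differed from wild type by -0.03 ± 0.17 on the log2 scale, and single strains lay between -0.25 and 0.16, with adjusted p-values of 0.608 and above in edgeR.

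miR-65-5p had 13939 and 17372 CPM in wild type, and its mutant libraries ran from 11294 (miR-52 to miR-53, replicate 1) through a median of 15639 to 20333 (family null, replicate 2). Here too 4 mutant libraries lay below both of wild type and 3 above both. The mean of the 7 strains differed by -0.02 ± 0.19, and the single strains by -0.36 to 0.18, with adjusted p-values of 0.3998 and above in edgeR. The standard errors of 0.23 for miR-64-5p and 0.25 for miR-65-5p in a single strain mean that differences of this size were not detectable with 2 libraries per strain.

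The pair kept close to a fixed ratio. miR-64-5p held more UMIs than miR-65-5p in 16 of 16 libraries, with a ratio of 1.004 (family null, replicate 2) to 1.33 (miR-52 to miR-53, replicate 1) and a median of 1.16. The SD of its log2 was 0.0975 over the 16 libraries and 0.0705 within strains, beside 0.0637 that counting alone gives. Their levels had a Pearson r of 0.92 and a Spearman rho of 0.96 over the 16 libraries, which share their scaling. The highest ratios were those of miR-52 to miR-53, at 1.33 and 1.23, and the wild-type ratios were 1.16 and 1.13. An exact permutation test of the variation between strains, over all 2027025 arrangements of the 16 libraries into 8 pairs, gave p = 0.0627 and 0.220 after adjustment over the 7 ratios tested.

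The ratios to miR-66-5p moved more. miR-64-5p stood at 0.814 and 0.863 of miR-66-5p in the wild-type libraries, and the 14 mutant libraries had 0.756 to 1.40 with a median of 1.11. Of these, 13 lay above both wild-type libraries and 1, miR-52 to miR-51 replicate 2, below both. The strain means were highest in miR-52 to miR-57 seed (1.27 ± 0.18, SD, n = 2) and in miR-54 and miR-55 only (1.21 ± 0.12). The same exact permutation test gave p = 0.0277 for the variation between strains, and 0.194 after adjustment over the 7 ratios.

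For miR-65-5p over miR-66-5p the wild-type ratios were 0.702 and 0.762, and the mutant libraries ran from 0.722 to 1.24, with 13 of 14 above both of wild type. The exact permutation p was 0.118, and 0.275 after adjustment. These counts of 13 need no scaling between libraries, but they rest on the same pair of wild-type libraries as the level of miR-66-5p. Both ratios also have miR-66-5p as denominator, so they are not separate from its level. The share of other pairs of strands with such counts was not computed.

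**Figure D4:**
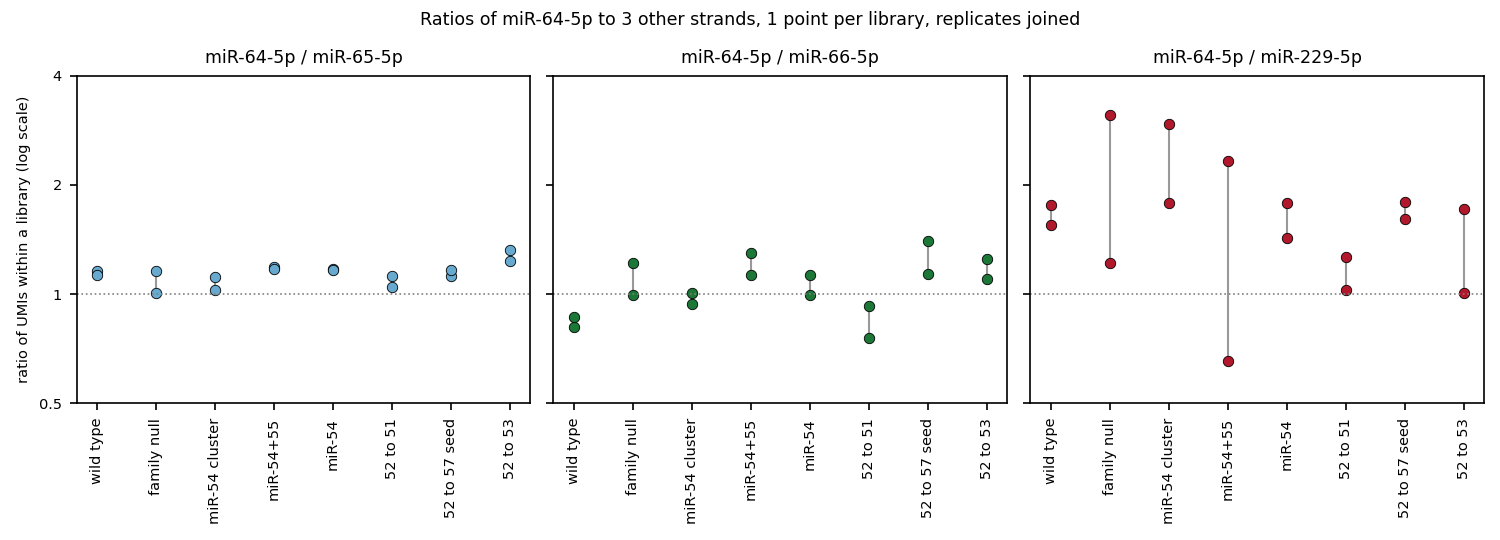
Ratio of the UMIs of miR-64-5p to those of miR-65-5p, miR-66-5p and miR-229-5p within each library (y axis, log scale) by strain (x axis), with 1 point per library and the 2 libraries of a strain joined by a line. The ratio to miR-65-5p stays between 1.004 and 1.33, and the ratio to miR-229-5p runs from 0.655 to 3.11, with the longest lines within single strains.

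miR-229-5p, from the first hairpin, varied most of the 4 cluster strands, and much of this was between the 2 libraries of a strain. It had 10404 and 11169 CPM in wild type, 11008 and 6565 in the family null strain, 10727 and 6389 in miR-54 cluster only, 27368 and 8074 in miR-54 and miR-55 only, and 12232 and 12879 in miR-54 only. The replacement strains had 13607 and 12706 (miR-52 to miR-51), 10841 and 11028 (miR-52 to miR-57 seed), and 14926 and 9354 (miR-52 to miR-53). The highest library stood 4.28-fold above the lowest, against 1.66-fold for miR-64-5p, 1.80-fold for miR-65-5p and 1.89-fold for miR-66-5p. In the highest library, miR-54 and miR-55 only replicate 1, miR-229-5p was the most counted of the 5, with 2080 UMIs. Its other library had 221 UMIs on this strand.

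The log2 of the ratio of miR-229-5p to each of miR-64-5p, miR-65-5p and miR-66-5p had an SD of 0.57 to 0.62 over the libraries and of 0.64 to 0.67 within strains, where counting alone gives 0.0689 to 0.0714. The exact permutation tests of these 3 ratios gave p-values of 0.661 to 0.767.

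Against wild type, miR-229-5p differed by -0.33 (miR-54 cluster only) to 0.73 ± 0.42 (miR-54 and miR-55 only) on the log2 scale, with adjusted p-values of 0.512 and above in edgeR. Between miR-54 and miR-55 only and miR-54 cluster only, the log2 fold change was 1.06 ± 0.42 with an adjusted p of 0.299 in edgeR. Both of these values rest on the replicate 1 library: without replicate 2 of miR-54 and miR-55 only they were 1.38 (adjusted p = 0.0323) and 1.71 (adjusted p = 0.0180) in edgeR, and the lone library is then assumed to vary like those of other strains. Without replicate 1, the difference from wild type was -0.34. The replicate 2 library had 33699 UMIs on miRNAs and 1.55 reads per UMI, and the part of its depth was not tested.

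miR-63-3p, the only one of the 5 from outside the cluster, was rare. It had 36.5 (miR-54 and miR-55 only, replicate 2, a single UMI) to 568 CPM (miR-52 to miR-53, replicate 1, 10 UMIs), and 506 UMIs in all 16 libraries together. Of the 14 mutant libraries, 12 lay above both wild-type libraries and 2 below both. Among the 150 tested strands outside the miR-51 family, 4.67% had at least 12 mutant libraries above both of wild type. The wild-type values of miR-63-3p, 176.4 and 175.6 CPM, lay so close together that every mutant library fell outside them. Strands whose wild-type libraries lie further apart meet such a count less easily, so this share is not a like measure for miR-63-3p. The fold changes were above 0 in all 7 strains, from 0.14 ± 0.60 (miR-52 to miR-57 seed) to 1.07 ± 0.54 (miR-52 to miR-51) on the log2 scale, with adjusted p-values of 0.256 and above in edgeR.

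The mean of the 7 strains was 0.61 ± 0.42 above wild type for miR-63-3p, with an adjusted p of 0.517 in edgeR. Without replicate 1 of miR-54 and miR-55 only, the difference of that strain turned to -2.17, and it was 0.93 without replicate 2, the library with a single UMI. The ratio of miR-63-3p to the sum of the 4 cluster strands had an SD of log2 of 0.79 over the libraries, beside 0.43 from counting alone, and the exact permutation test of its variation between strains gave p = 0.546.

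The opposite strands of the 5 hairpins were not used to choose the members. miR-64-3p made up 0.287% (95% Clopper-Pearson interval 0.234% to 0.349%) of the UMIs of its hairpin over all libraries, and miR-66-3p 0.309% (0.255% to 0.371%). The share was 1.49% (1.36% to 1.63%) for miR-65-3p, 5.69% (5.40% to 5.99%) for miR-229-3p, and 7.50% (5.43% to 10.03%) for miR-63-5p, from 41 UMIs. These intervals cover counting error only. The named guide strand thus held most UMIs at each of the 5 hairpins, and its excess was largest at mir-64 and mir-66.

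Like its guide strand, the opposite strand of mir-229 differed between the libraries of a strain. miR-229-3p had 687 and 829 CPM in wild type, and 441 and 1274 in the family null strain, where miR-229-5p ran the other way with 11008 and 6565. The ratio of miR-229-5p to miR-229-3p was 15.1 and 13.5 in wild type and ran from 5.15 (family null, replicate 2) to 65.8 (miR-52 to miR-53, replicate 1, with 4 UMIs on miR-229-3p). The exact permutation test of its variation between strains gave p = 0.706. In miR-52 to miR-53, miR-229-3p had 227 and 398 CPM, a log2 fold change of -1.14 ± 0.49 to wild type with an adjusted p of 0.181 in edgeR.

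miR-65-3p ran from 140 to 447 CPM. Its strain means were highest in miR-52 to miR-57 seed, from 321 and 447, and in the family null strain, from 264 and 398, where wild type had 238 and 190. Single libraries of other strains overlapped these, such as replicate 2 of miR-54 and miR-55 only at 329. The ratio of miR-65-5p to miR-65-3p ran from 38.1 to 133, with an exact permutation p of 0.0393 for the variation between strains and 0.0787 after adjustment over the 2 hairpins tested. The other 3 opposite strands had too few UMIs for this test.

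Summed over the 5 strands, no difference passed a test. The sum was 60557 and 71167 CPM in wild type, and the mutant libraries ran from 49710 (family null, replicate 1) to 74579 (miR-54 and miR-55 only, replicate 1). The exact permutation test of the variation between strains gave p = 0.403. miR-52 to miR-53 had the lowest strain mean, at 0.812 ± 0.093 of wild type, with both libraries (53196 and 53800) below both of wild type, and miR-54 only the highest, at 1.05 ± 0.14. The exact permutation p for miR-52 to miR-53 was 0.333, the smallest that 2 libraries against 2 allow. With plain sums as library sizes its log2 difference was -0.0455 in place of -0.30. The family null strain (-0.15), miR-52 to miR-57 seed (-0.13) and miR-54 and miR-55 only (-0.0553) were then lower. A level relative to other miRNAs does not show a change that all miRNAs share.

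Ratios in other clusters give a scale for these spreads. The SD of the log2 ratio over the 16 libraries was 0.0975 to 0.62 for the 6 pairs of the mir-64 cluster, with a median of 0.41. It was 0.14 to 0.52 for the 21 pairs among miR-35-3p to miR-41-3p (median 0.31), 0.29 to 0.60 for the 3 pairs among miR-42-3p, miR-43-3p and miR-44-3p, and 0.46 for miR-73-3p and miR-74-3p. The pair miR-64-5p and miR-65-5p had the lowest SD of these 31 pairs, and the pairs with miR-229-5p lay at the upper end. No test of this difference was made.

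The strands whose log2 level was most like the log2 sum of the 5, among all strands tested and over the 16 libraries, were miR-67-5p (Pearson r 0.71), miR-796-5p (0.64), miR-54-5p (0.60), miR-50-5p (0.57) and miR-54-3p (0.57). The 2 miR-54 strands belong to the family that the strains alter. The libraries share 1 scaling, on which all these values rest.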

How the data were processed

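Small RNA reads with random adapter bases were mapped to miRNA strands and quantified with the authors' Nextflow pipeline. The genome build is WBcel235 per the labels, and the aligner is not given in the sources used here. The authors deposited estimated counts of UMIs and reads, not normalized and divided among the strands that fit a read, with counts of UMIs in full beside them. Strands without a read are left out of a list and were taken as 0. Each list was used for its own library, without pooling. The lists used here hold no spike-ins or piRNAs, so the spike-in scale of the study was not used, and levels are relative to miRNA strands outside the miR-51 family (guide and opposite strands of mir-51 to mir-56).

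A strand, its divided UMIs rounded to whole numbers, entered the test where 2 or more libraries had 10 or more. The test was run in edgeR 4.0.16 (R 4.3.3), all 16 libraries in 1 fit, with TMM library sizes, the quasi-likelihood test and Benjamini-Hochberg adjustment over 162 strands (threshold 0.05). The biological coefficient of variation was 25.3%, and standard errors were computed from the fold change and the F statistic. Ratios were formed within a library and are printed from the counts as they stand. For their log2 values, SDs and tests, 0.5 was added to each count. The ratios were compared between strains by exact permutation (Python 3.11.15, numpy 2.4.6, scipy 1.17.1). Both procedures were tested on simulated data. Tests were two-sided, except that of the variation between strains, which has no direction. Alternatives were other library sizes, reads, DESeq2 1.42.0, other filters, the 2 strains of a comparison alone, the replicate number as a block and the omission of single libraries. DESeq2 was run with median-of-ratios library sizes.

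The labels give 2 libraries per strain, and the study calls them independent duplicates. Libraries of a strain differed by more than counting noise (chi-square per degree of freedom 10.2 to 48.5). All 16 carry the same batch tag. The 5 members were chosen by name and not by measured values, although earlier results of these data were known. Both strands of their hairpins, the 5 strands most like their sum, and the lists of comparison strands were also chosen with those results known.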

Additional observations from a re-analysis of the deposited data

Results flagged for a closer look

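The deposited lists split the divided UMIs of each strand into a pair of columns, GM and PM, whose meaning the sources used here do not explain, and no comparison above used the split. The PM column held 10.4% of the UMIs of miR-64-5p over the 16 libraries (7.39% to 16.8% per library), 3.97% of those of miR-65-5p, 1.59% of those of miR-66-5p, 1.27% of those of miR-229-5p and 1.19% of those of miR-63-3p, where all miRNA strands together had 3.17% (2.86% to 3.68%). miR-64-5p lay above the range of all strands in 16 of 16 libraries. In wild type its PM share was 9.90% and 10.1%, beside 3.68% and 3.56% for miR-65-5p.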

How the results depend on the processing

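The counts of 0 of 5 strands called held under the alternatives with 5 exceptions. In miR-52 to miR-53 against wild type, 1 strand, miR-66-5p, was called with DESeq2 (adjusted p = 0.0397) and with the replicate number as a block (-0.68, adjusted p = 0.0374). The numbers did not pair the libraries: deviations of same-numbered libraries correlated by -0.44 to 0.40 over 28 pairs of strains, with 7 over 0.1, and the block changed no other call of the 5. In miR-54 and miR-55 only against miR-54 cluster only, 1 strand, miR-229-5p, was called without a filter on low UMIs (1.09, adjusted p = 0.0223 by edgeR over 357 strands) and without replicate 2 of miR-54 and miR-55 only, and 1 was called without that library against wild type, so omission of single libraries gave 0 to 1 called there and 0 to 0 elsewhere.

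With library sizes from plain sums, the log2 difference of the summed level became 0.11 in miR-52 to miR-51 (-0.12 with TMM) and -0.0455 in miR-52 to miR-53 (-0.30 with TMM). Relative to TMM, this scaling moved the median of strands outside the family by 0.22 and 0.20 in these comparisons, and by 0.16 in miR-54 only against wild type. miR-66-5p was below both wild-type libraries in 13 mutant libraries by TMM and by median-of-ratios, in 14 by reads and in 10 by plain sums, and as a share of the 5 strands in 13. These 4 alternatives were chosen after seeing the data. Its log2 fold change stayed below 0 in each strain and alternative except miR-54 only, where 1 alternative gave 0.003. Apart from the omission of single libraries, uncalled values of miR-64-5p changed sign in 14 of 71 values and those of miR-65-5p in 12 of 71. That omission changed the sign in 20 of 128 values of miR-64-5p and in 25 of 128 of miR-65-5p.

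Without single libraries, the log2 difference of the summed level ranged from -0.28 to 0.05 (family null), -0.07 to 0.11 (miR-54 cluster only), -0.07 to 0.22 (miR-54 and miR-55 only), -0.01 to 0.19 (miR-54 only), -0.14 to -0.01 (miR-52 to miR-51), -0.19 to 0.005 (miR-52 to miR-57 seed) and -0.30 to -0.14 (miR-52 to miR-53). The exact permutation p of miR-64-5p over miR-65-5p ranged from 0.00802 to 0.240, and that of miR-64-5p over miR-66-5p from 0.0212 to 0.0704, and none passed after adjustment. With 2 libraries per strain, a single strand had a standard error of 0.21 or more on the log2 scale in any single strain against wild type.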
